A study of Homo sapiens with 2 samples.

Results

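The cells described here are CRABP1-high, non-dividing cells of the day 160 library: 1141 of the 9972 day 160 cells that passed the filters (11.4%, exact binomial 95% interval 10.8 to 12.1%). They were chosen from measured values. A cell had to carry at least 5 unique molecular identifiers (UMIs, each 1 counted RNA molecule) of CRABP1 and fewer than 5 of STMN2, a neuronal microtubule regulator. It had to carry no UMI of the division genes MKI67, TOP2A and TYMS, and not both at least 1 UMI of RAMP1 and at least 2 of GPC3. To pass, a cell needed 1000 or more detected genes, and mitochondrial transcripts could take no more than 15% of its UMIs. These 7 genes therefore carry no finding, and a gene that travels with CRABP1 was favoured by the choice.

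Both libraries of the series came from H7, an established human embryonic stem cell line, as astrocyte progenitors that had received LIF, BMP4 and FGF1. One library was labelled day 160 and the other day 220, and both were made with a 10x Genomics 3' kit. The protocol text of the later library also names day 160, and its title and time-point label were followed. In each, cells of 3 independent differentiations were combined before loading, and no label separates them. Both groups share the line and all agents, so there was no untreated cell to compare with. Each time point is 1 library. Cells are not replicates, so no test is given. Intervals cover counting error only, except those of list medians, which describe the spread over genes of a list.

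CRABP1 is a cytoplasmic binding protein for retinoic acid, the vitamin A derivative that patterns the embryonic body axis. HOX genes encode homeodomain factors laid out in clusters along the chromosome, and their expression marks levels of the hindbrain, spinal cord and trunk. DLX genes act in the ventral forebrain, where they drive the making of GABA-releasing interneurons.

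Of the 13018 day 160 barcodes, 620 had too few genes and 2924 too many mitochondrial UMIs. The CRABP1-high cells held 11297472 UMIs, with a median of 8063 per cell against 11035 in the other 8831 passing cells. A rule that demands 0 UMIs of 3 division genes favours shallower cells. Levels are therefore given as UMI counts of summed cells scaled to a total of 1000000 (counts per 1000000, CPM), and shares of cells also after thinning each cell to 5000 UMIs. Thinning left out 44 CRABP1-high cells (3.86%) and 649 others (7.35%). A doublet caller marked 59 of the CRABP1-high cells (5.17%) and 488 of the others (5.53%). The 2 libraries shared 3 cell barcodes, and 0 of these belonged to the CRABP1-high cells.

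CRABP1 was 0 in 6713 passing cells, 1 or 2 UMIs in 1068, and 3 or 4 in 202. It reached 5 in 1989 cells. Of those, 1141 (57.4%) met the whole rule. The rest were sorted in turn: 45 (2.26%) had 5 or more UMIs of STMN2, 73 (3.67%) of those left carried RAMP1 with GPC3, and the last 730 (36.7%) carried a division gene. A division gene was also present in 7 of the 45 and in 54 of the 73. Within the CRABP1-high cells the count ran from 5 to 363 UMIs with a median of 26. The cells just inside the threshold, 77 cells with 5 or 6 UMIs, were close in HOXB content to the 97 otherwise eligible cells with 3 or 4. At least 1 UMI of any HOXB gene was present in 96.1% of the former and 95.9% of the latter. HOXB5 stood at 221 CPM inside and 175 CPM outside. DLX6-AS1, a long non-coding RNA from the DLX5 and DLX6 locus, stood at 1571 and 1644 CPM. The threshold thus cut through cells of like content, and 97 such cells lie in the comparison group.

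**Figure D1:**
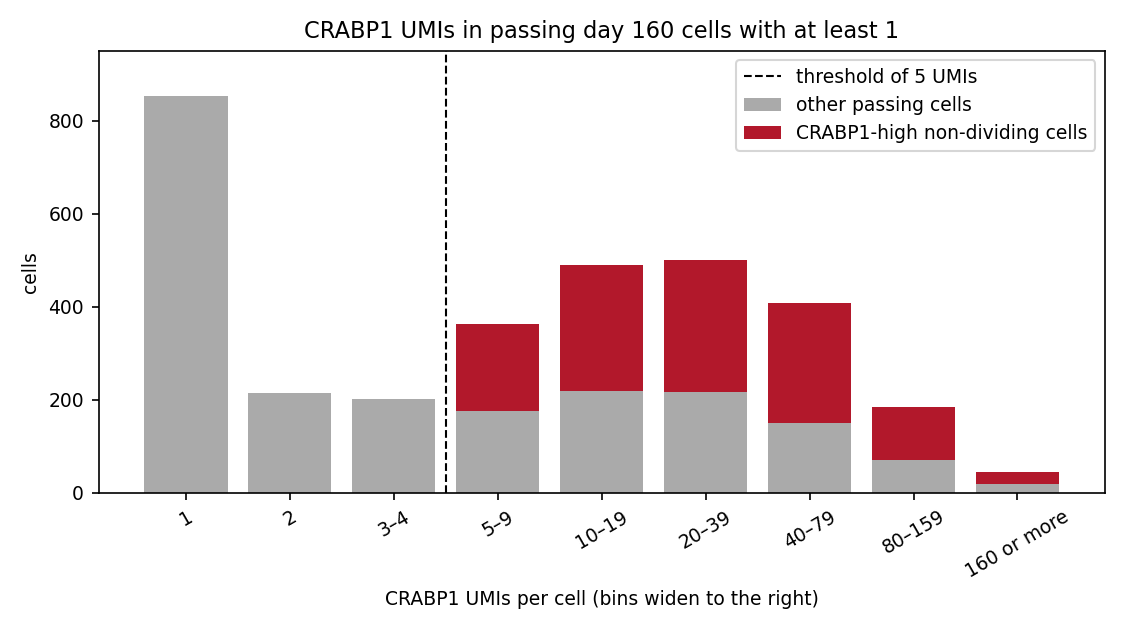
Number of passing day 160 cells (vertical axis) by CRABP1 UMIs per cell (horizontal axis, bins widening to the right), for cells with at least 1 UMI. The dashed line is the threshold of 5 UMIs. Red marks the 1141 chosen cells and grey the other cells. Grey bars right of the line are cells with a division gene, STMN2, or RAMP1 and GPC3. The 6713 cells without a CRABP1 UMI are not drawn.

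A working name for these cells was posterior neuronal precursors. Its 3 markers outside the rule, HOXB6, HOXB5 and DLX6-AS1, were 7.75-fold, 6.68-fold and 4.87-fold higher than in the other passing cells. The regional genes pointed 2 ways: HOXB genes belong to the hindbrain and trunk, DLX genes to the forebrain, and of 44 listed hindbrain and spinal cord factors only 4 reached 5 CPM in either group. The cells are therefore named below by CRABP1 alone.

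Against all other passing cells, 215 of 8911 genes with at least 10 CPM in either group were at least 2-fold higher in the CRABP1-high cells (2.41%) and 592 were at least 2-fold lower (6.64%). The rule removed dividing cells from one side only, so most of the largest decreases were division genes. UBE2C, a ubiquitin ligase partner of mitosis, stood at 4.69 against 212 CPM. A second comparison used 4698 other cells that met every criterion except CRABP1, called other non-dividing cells. There, 234 of 8733 genes were higher (2.68%) and 461 lower (5.28%), and UBE2C stood at 4.69 against 4.84 CPM. Fold changes below are ratios of CPM with exact conditional 95% intervals. List medians are log2 ratios with 1 CPM added to both sides, over list genes with at least 5 CPM in either group.

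HOXB genes, on chromosome 17, were high throughout the CRABP1-high cells. HOXB5 (chr17:48591257-48593961, minus strand, GRCh38) stood at 291 CPM (281 to 301) in the CRABP1-high cells, 43.5 in all others and 24.0 in other non-dividing cells. That is 6.68-fold (6.39 to 6.98) over all others and 12.1-fold over other non-dividing cells. HOXB6 (chr17:48595751-48604992) stood at 211 CPM (203 to 220), against 27.2 and 15.7, or 7.75-fold (7.35 to 8.18) and 13.5-fold. These 2 genes sit side by side in the cluster and encode trunk and hindbrain patterning factors.

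The neighbouring genes followed. HOXB2, active up to the anterior hindbrain in the embryo, stood at 302 against 53.8 CPM (5.62-fold, 5.38 to 5.86). HOXB3 showed the smallest ratio of the coding HOXB genes measured, at 167 against 41.5 CPM (4.02-fold, 3.81 to 4.24). HOXB4 stood at 219 against 32.6 CPM and HOXB8 at 109 against 15.4 CPM. HOXB7 stood at 35.8 against 5.77 CPM and HOXB9 at 9.12 against 1.61 CPM. The 3' ends of several of these genes lie near or inside a neighbour's annotated span, and HOXB7 spans HOXB8. The sources used here do not say whether counting used strand, so reads may have been split among them and their antisense RNAs.

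Summed over 10 HOXB genes, the CRABP1-high cells held 1344 CPM, the dividing CRABP1 cells 728, other non-dividing cells 145, and 2025 GFAP cells 79.5. GFAP cells here are non-dividing others with at least 5 UMIs of GFAP, the astrocyte filament protein, and fewer than 2 each of CALB2 and SCGN. The other HOX clusters behaved differently. HOXA genes summed to 3.63 CPM in the CRABP1-high cells and 6.52 in all others, and HOXD genes to 3 UMIs in all 1141 cells. HOXC genes summed to 23.1 against 3.30 CPM, and HOXC4 on chromosome 12 made up most of it, at 18.4 against 2.70 CPM (6.83-fold, 5.70 to 8.16).

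Of 43 listed HOX genes and HOX antisense RNAs, 11 had 5 CPM in either group. All 11 were at least 2-fold higher, with a median log2 ratio of 2.44, against −0.06 over all 10830 genes at that filter (of which 2.44% were higher and 7.11% lower). Some of the 11, HOXB9 and HOXC4 among them, passed the filter only through the CRABP1-high cells, so they could only have come out higher. The other 32 stayed under 5 CPM in both groups. HOX partners moved less. MEIS2, a cofactor of HOX proteins that is also expressed in striatal precursors, stood at 404 against 289 CPM, below a 2-fold difference. NR2F1, an orphan nuclear receptor of the cortex and caudal ganglionic eminence, was lower, at 67.6 against 196 CPM.

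**Figure D2:**
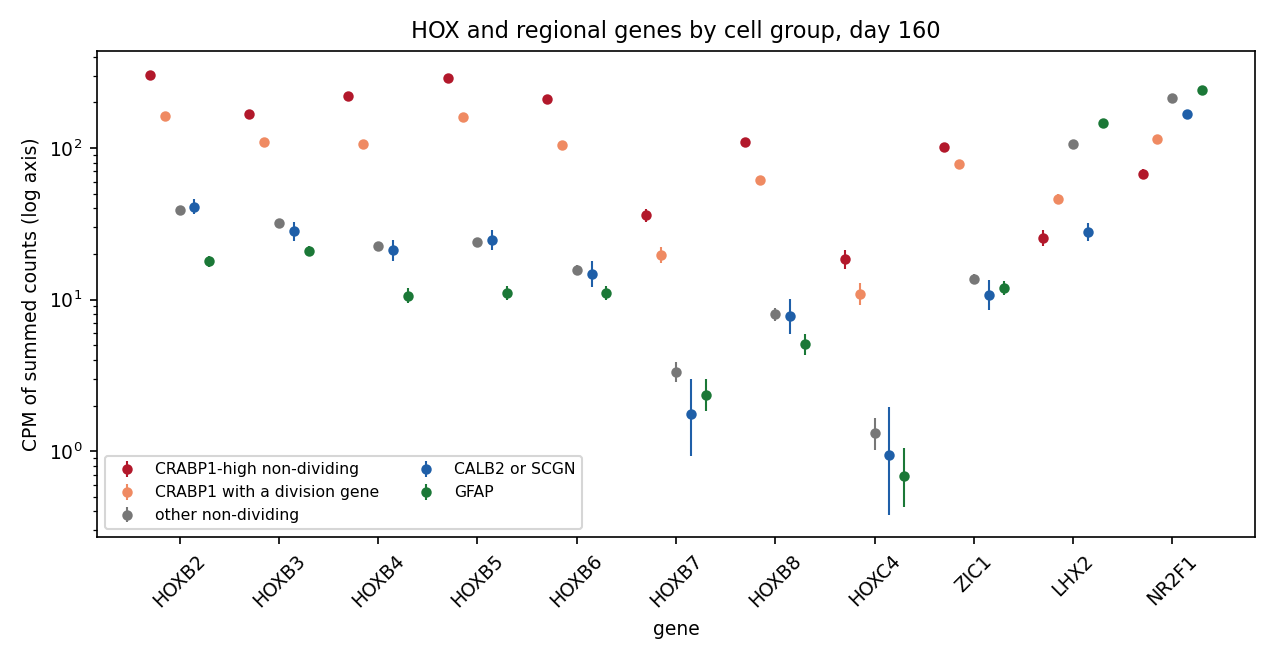
CPM of summed counts (log axis) with 95% Poisson intervals for 11 genes in 5 groups of day 160 cells. HOXB genes, HOXC4 and ZIC1 are highest in the CRABP1-high cells (red), followed by CRABP1 cells with a division gene (orange). LHX2 and NR2F1 are lower in both CRABP1 groups than in other non-dividing cells.

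At the level of single cells, HOXB RNA was nearly universal in the CRABP1-high cells. A UMI of any HOXB gene was seen in 1136 of 1141 (99.6%) and in 42.6% of the other cells. After thinning, the shares were 97.7% (96.7 to 98.5) and 32.3% (31.3 to 33.3). GFAP cells, whose median depth of 13573 UMIs was higher, gave 18.4% after thinning, which serves as the level in cells of another kind. At least 3 different HOXB genes were seen in 82.2% of thinned CRABP1-high cells and 13.4% of thinned others. Among other cells without doublet marks, HOXB5 RNA and HOXB6 RNA went together: 427 of 1067 thinned cells with HOXB5 held HOXB6, and 3.76% of those without it did. That group includes the dividing CRABP1 cells. In CRABP1-high cells without doublet marks the shares were 67.5% and 46.0%.

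Several factors of the forebrain were lower. LHX2, a LIM factor of dorsal forebrain and eye, was lower at 25.5 against 86.4 CPM, and others exceeded the CRABP1-high cells 3.39-fold (3.01 to 3.82). OTX2, which marks forebrain and midbrain, stood at 7.88 against 20.1 CPM. EMX2 and SIX3, of the anterior neural plate, stood at 22.8 against 45.7 and 25.8 against 47.1 CPM. Of 26 listed forebrain factors, 15 were measured: 5 were lower and 1 was higher, with a median of −0.71, where 7.11% of all genes at this filter were lower and 2.44% higher. That median was −0.18 (−1.72 to 1.30) among members of the list with at least 50 CPM, and −1.31 without the sub-group of 90 cells rich in marked doublets described below. ZIC1, expressed in dorsal neural tube and septum, was 4.08-fold higher (3.81 to 4.37), at 102 against 24.9 CPM. Of the 4 measured hindbrain and spinal cord factors, ZIC1 and IRX2 were higher, and LHX2, which is also expressed in the dorsal spinal cord, was lower.

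**Figure D3:**
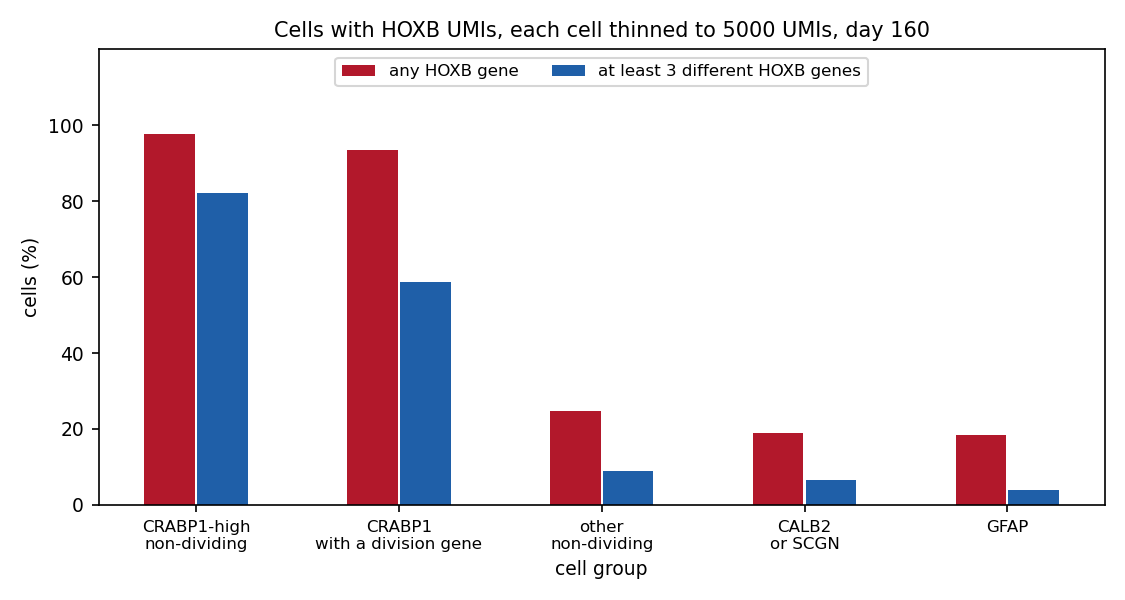
Share of cells (vertical axis, percent) with at least 1 UMI of any HOXB gene and with UMIs of at least 3 different HOXB genes, in 5 groups of day 160 cells thinned to 5000 UMIs each. The first bar falls from 97.7% in the CRABP1-high cells to 18.4% in GFAP cells, and the second from 82.2% to 4.04%.

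A few genes of retinoid handling were higher and most were not. FABP5, a lipid carrier that can also bind retinoic acid, stood at 279 against 114 CPM. RARB, a retinoic acid receptor, stood at 6.99 against 2.88 CPM (2.43-fold, 1.88 to 3.12). RARA, another receptor, stood at 46.1 against 24.0 CPM, and RXRA, the shared partner receptor, at 26.8 against 26.2 CPM.

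The ALDH1A and CYP26 enzymes named here, which make or clear retinoic acid, were barely detected. ALDH1A1 and ALDH1A3, which oxidise retinal, had 0 UMIs in the CRABP1-high cells, and ALDH1A2 had 2. CYP26A1, which breaks down retinoic acid, had 4 UMIs and CYP26B1 had 1. Other retinoid enzymes were measured. DHRS3 stood at 13.5 against 25.5 CPM, and RDH5, RDH10, RDH11, RDH13 and DHRS4 had log2 ratios between −0.52 and 0.16. CRABP2, the close relative of CRABP1, stood at 0.443 against 0.459 CPM. Of 28 listed retinoid genes (CRABP1 was not listed), 14 were measured. The median was 0.01, and 3 were higher but 0 lower, with FABP5 and RARB among the 3 (2.44% of all genes were higher). RARB reached 5 CPM only in the CRABP1-high cells, so it could only have come out higher.

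The DLX genes and their partners were higher in the CRABP1-high cells. DLX6-AS1 (chr7:96955141-97014065, minus strand) stood at 2139 CPM (2112 to 2166) against 440 in others, 4.87-fold (4.79 to 4.94). After thinning it was found in 87.5% of CRABP1-high cells and 34.2% of others. DLX1 stood at 263 against 107 CPM, DLX5 at 572 against 235, and DLX6 at 72.1 against 32.7. DLX2 stood at 1007 against 510 CPM (1.97-fold, 1.93 to 2.01), just short of a log2 ratio of 1. SP9, a zinc finger factor of ganglionic eminence precursors, was 3.11-fold higher at 317 against 102 CPM. ETV1, an ETS factor found in olfactory bulb interneuron precursors, was 3.68-fold higher at 218 against 59.2 CPM.

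Genes of GABA release gave a mixed picture. SLC32A1, the vesicular GABA transporter, was 3.54-fold higher (3.20 to 3.92), at 44.8 against 12.6 CPM. GAD2, an enzyme that makes GABA, stood at 149 against 106 CPM and GAD1 at 17.3 against 8.30 CPM, both under a log2 ratio of 1. NKX2-1 and LHX6, the factors of the medial ganglionic eminence, had 0 UMIs in the CRABP1-high cells and in all others. The calcium-binding interneuron marker CALB2 was lower, at 53 against 158 CPM. Of 37 listed DLX and interneuron genes, 25 were measured. Higher were 11 and lower 2, CALB2 and NR2F1 (all genes at that filter: 2.44% higher, 7.11% lower). The median was 0.61 (−0.18 to 1.29). Set against other non-dividing cells, higher were 13 and lower 3, and the median was 1.02 (all genes at that filter: 2.8% higher, 5.5% lower).

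Of 37 listed proneural and precursor genes, 20 were measured. Higher were 9 and lower 0, and the list's median was 0.90, where 2.44% of all genes were higher. DLL3, a Notch ligand family member of newborn neurons, was 4.35-fold higher (4.08 to 4.63), at 122 against 28.0 CPM. IGFBPL1, a marker of early neurons, stood at 182 against 43.6 CPM and INSM1, a factor of precursors leaving the cycle, at 170 against 63.9. HES6, a factor of precursors, stood at 125 against 111 CPM in all others and 66.5 in other non-dividing cells. DCX, a microtubule protein of migrating neuroblasts, stood at 515 against 280 CPM, and SOX4 at 3110 against 1796. CDKN1C, a cell cycle inhibitor, was 6.94-fold higher (6.16 to 7.82), at 41.3 against 5.95 CPM.

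Several genes of later neurons were higher too. ELAVL3, a neuronal RNA-binding protein, was 6.92-fold higher (6.24 to 7.67), at 54.9 against 7.93 CPM. SYT1 and SNAP25, of the vesicle release machinery, stood at 122 against 30.6 and 55.0 against 11.5 CPM. The neurofilament gene NEFM stood at 24.6 against 3.01 CPM, but was seen in 4.47% of thinned CRABP1-high cells. NEFL, its partner, was seen in 7.57%. RBFOX3, a marker of mature neurons, was near 0, at 0.797 CPM. Of 40 listed neuronal genes, 32 were measured, with 12 higher, 1 lower (THY1) and a median of 0.57, where 2.44% of all genes were higher and 7.11% lower. NEFM reached 5 CPM only in the CRABP1-high cells, so it could only have come out higher. SOX2, a factor of neural progenitors, was kept at 884 against 1000 CPM and was seen in 95.7% of thinned CRABP1-high cells. STMN2 was capped by the rule, so cells with more neuronal RNA were in part left out.

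**Figure D4:**
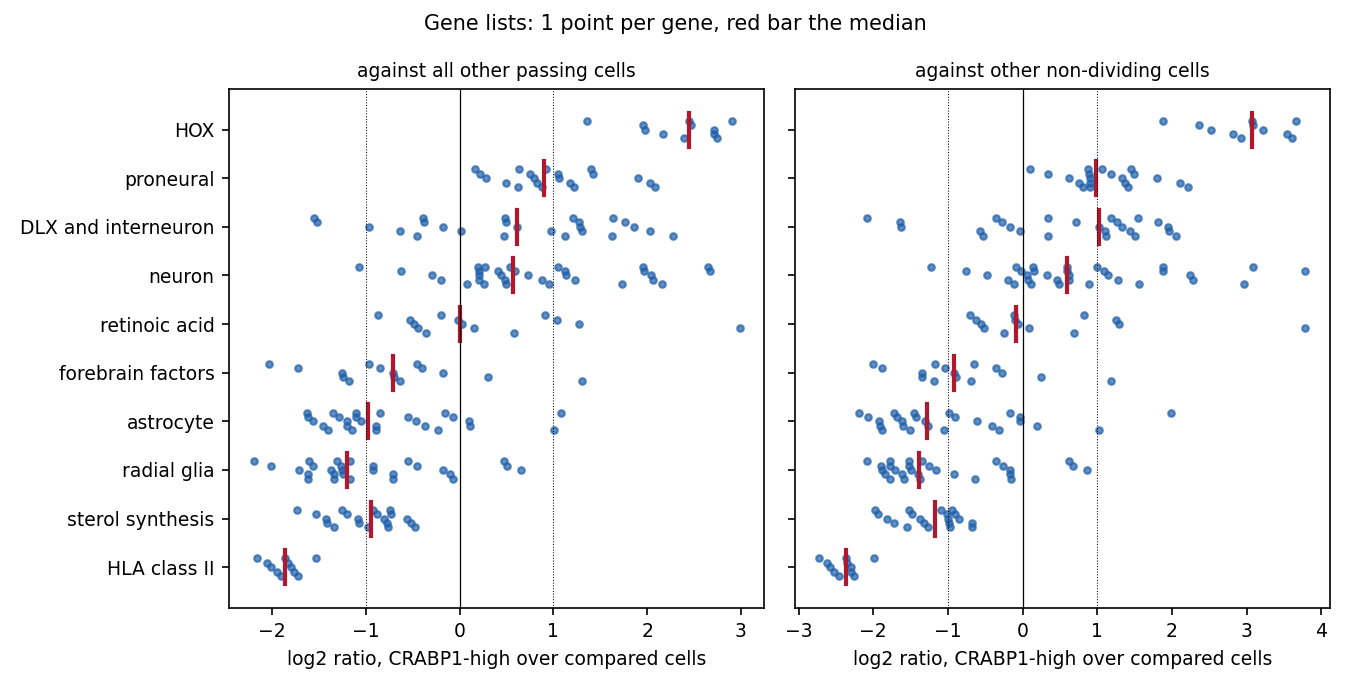
Log2 ratio (horizontal axis) of CRABP1-high cells over all other passing cells (left) and over other non-dividing cells (right), for 10 gene lists. Each point is 1 gene with at least 5 CPM in either group, and red bars are medians. HOX medians are 2.44 and 3.07, and HLA class II medians are −1.86 and −2.36.

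WNT4, a secreted Wnt ligand, had the largest ratio of any named gene outside the rule. It stood at 28.4 CPM (25.4 to 31.7) against 2.35 in others (12.1-fold, 10.3 to 14.3), and 11.5% of thinned CRABP1-high cells held a UMI of it. Of 17 measured Wnt pathway genes, WNT4 and FZD5 were at least 2-fold higher and 1, FZD8, was lower. The median was −0.40, where 2.44% of all genes were higher and 7.11% lower. FZD5, a Wnt receptor, stood at 45.2 against 21.1 CPM. WNT4 reached 5 CPM only in the CRABP1-high cells, so it could only have come out higher. SOCS2, an inhibitor of cytokine signalling, was 4.83-fold higher (4.61 to 5.06), at 234 against 48.4 CPM. Of 13 measured genes of LIF and STAT3 signalling it was the 1 that was higher, and 3 were lower (SERPINA3, CEBPD and CEBPB), with a median of −0.10, where 2.44% of all genes were higher and 7.11% lower. BCL11A, a zinc finger factor of neurons, stood at 189 against 37.5 CPM. LINC02381, a long non-coding RNA, stood at 55.9 against 7.70 CPM. BCL11A is named here after its values were seen.

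Against other non-dividing cells, a few genes outside these lists had large ratios. FBLN1, an extracellular matrix glycoprotein, stood at 80.8 CPM in the CRABP1-high cells and 7.97 in other non-dividing cells, but at 88.9 CPM in the dividing CRABP1 cells. CABP7, a calcium-binding protein, stood at 22.0 against 1.56 CPM (14.1-fold). LOX, a collagen-crosslinking enzyme, was lower at 6.82 against 38.7 CPM, and IQGAP2, a scaffold protein, at 27.2 against 146.

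Many glial genes were lower, though not all. VIM, the filament protein of radial glia, stood at 3372 against 7579 CPM, and FABP7, a radial glial lipid carrier, at 851 against 2106. HES5, a Notch target, stood at 117 against 348 CPM. GFAP stood at 196 against 581 CPM, CLU, a secreted chaperone of astrocytes, at 1034 against 2371, and BCAN, a matrix protein, at 22.1 against 70.7. Of 28 measured radial glial genes, 16 were lower and 0 higher (median −1.21). Among the remaining 12, the progenitor factors SOX2 and SOX9 had log2 ratios of −0.18 and −0.08, and the cadherin gene CDH2 0.66. Of 26 measured astrocyte genes, 13 were lower and 2 higher, GJA1 and ID3 (median −0.97). GJA1, a gap junction protein, stood at 241 against 119 CPM. Across all genes at this filter, 7.11% were lower. Against the CALB2 or SCGN cells described below, the radial glial and astrocyte medians were −0.06 and −0.07. Of 28 radial glial genes there, 2 were higher and 1 lower, and of 24 astrocyte genes 0 and 5. In that comparison, 2.27% of all genes were higher and 1.56% lower. Against the dividing CRABP1 cells described below, the medians were −0.54 and −0.11. These low levels were thus shared with the CALB2 or SCGN cells.

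HLA class II genes, which present antigen and were abundant in the GFAP cells, were lower. HLA-DRA stood at 185 against 773 CPM in all others and 1686 in GFAP cells, and CD74, its chaperone, at 89.3 against 326. All 11 measured members of the list were lower, with a median of −1.86, where 7.11% of all genes were lower. Without the doublet-rich sub-group, which carried most of these UMIs, the median was −4.05. HLA paralogs share sequence, so the split among them is uncertain. Genes of sterol synthesis were lower for 9 of 20 measured and higher for 0, with HMGCS1, which acts early in the pathway, at 98.4 against 287 CPM (all genes: 7.11% lower). Against the CALB2 or SCGN cells, the HLA class II median was −0.14 and the sterol median −0.10. Lower there were 0 of 10 and 0 of 20 measured genes, where 1.56% of all genes were lower. Against the dividing CRABP1 cells the medians were −0.70 and −0.18. Neither list was thus low in the CRABP1-high cells only.

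Markers of other cell types ranged from absent to moderate. The 10 microglial genes had 0 UMIs, and 8 endothelial genes summed to 0.620 CPM. Genes of the oligodendrocyte lineage summed to 604 CPM, against 505 in all others. PDGFRA, a growth factor receptor of oligodendrocyte precursors and of mesenchymal cells, made up most of that at 466 against 296 CPM, while SOX10, of oligodendrocytes and neural crest, had 0 UMIs and OLIG1 stood at 1.06 CPM. Genes of matrix-producing and contractile cells summed to 633 CPM, against 1351 in all others. Of their 15 measured genes 6 were lower and 0 higher, where 7.11% of all genes were lower and 2.44% higher. The fibrillar collagen COL1A1 stood at 1.5 against 39.4 CPM. It reached 5 CPM only in the other cells, so it could only have come out lower. One sub-group described below held far more RNA of this list, with a sum of 2384 CPM.

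The dividing CRABP1 cells also held HOXB RNA, in somewhat fewer cells at matched depth and at a lower level. They number 730 and differ in the rule only by carrying MKI67, TOP2A or TYMS. Against them, 74 of 8951 genes were at least 2-fold higher in the CRABP1-high cells (0.827%), and 536 were lower (5.99%), division genes foremost. Some HOXB RNA was found in 99.3% of the dividing CRABP1 cells, whose median depth was 13299.5 UMIs. After thinning the share was 93.4% (91.3 to 95.1), against 97.7% in the CRABP1-high cells. At least 3 HOXB genes were seen in 58.8% and 82.2%. HOXB5 stood at 291 CPM in the CRABP1-high cells and 159 in the dividing ones (1.83-fold, 1.73 to 1.93). The median HOX ratio was 0.82.

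Neuronal genes led what was higher in the CRABP1-high cells than in their dividing counterparts. GDAP1L1 stood at 31.2 against 6.37 CPM (4.89-fold, 3.85 to 6.28), and CELF3, a neuronal splicing regulator, at 20.2 against 4.47. NSG1, a neuronal endosome protein, stood at 61.5 against 20.2 CPM. DLX6-AS1 was 2.68-fold higher and DCX 2.12-fold higher. HES6 was instead lower, at 125 against 236 CPM. Marked doublets made up 18.2% of the dividing CRABP1 cells and 5.17% of the CRABP1-high cells, and their part in these differences was not tested.

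Set against the CALB2 or SCGN cells, the CRABP1-high cells had like levels of DLX6-AS1 and DLX2 and far more HOXB RNA. These 1041 cells had fewer than 5 CRABP1 UMIs and at least 2 of CALB2 or SCGN, so neither of those 2 genes is read here. DLX6-AS1 stood at 2139 CPM in the CRABP1-high cells and 2130 in the CALB2 or SCGN cells (95% interval of the ratio 0.984 to 1.02). DLX2 stood at 1007 and 960 CPM. DLX5 was lower in the CRABP1-high cells, at 572 against 1076 CPM, under a 2-fold difference. Of 27 measured DLX and interneuron genes, which include CALB2, 4 were higher in the CRABP1-high cells and 7 lower, with a median of −0.38. Of 8 measured genes of GABA release, 0 were higher and 2 lower. Across all genes at this filter, 2.27% were higher and 1.56% lower. HOXB5 stood at 291 against 24.8 CPM (11.7-fold, 10.1 to 13.7), and HOXB6 at 211 against 14.8 CPM (14.3-fold, 11.8 to 17.4). WNT4 was 52.7-fold higher, with a wide interval of 20.4 to 195 because the CALB2 or SCGN cells held few UMIs of it.

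Neuronal genes differed in both directions between these groups. Of 34 measured neuronal genes, 5 were higher in the CRABP1-high cells and 6 lower, with a median of −0.34. Across all 10401 genes at this filter, 2.27% were higher and 1.56% lower. NEFM stood at 24.6 CPM in the CRABP1-high cells and 0.404 in the CALB2 or SCGN cells. Other genes had more RNA in the CALB2 or SCGN cells. DCX stood at 1465 CPM there and 515 in the CRABP1-high cells, GAD2 at 417 and 149, and BCL11B, a zinc finger factor of striatal and olfactory neurons, at 143 and 13.8. ERBB4, the neuregulin receptor of migrating interneurons, stood at 21.3 and 3.01 CPM. Of 21 measured proneural genes, 4 were higher in the CRABP1-high cells and 2 lower, with a median of 0.01. DLL3 was 3.09-fold and HES6 2.15-fold higher, and ST18, a zinc finger factor, was lower at 3.54 against 19.3 CPM. NEFM and ST18 each reached 5 CPM in 1 of the 2 groups, so the direction of each was fixed by the filter. In all, 169 of 8509 genes were at least 2-fold higher in the CRABP1-high cells (1.99%) and 129 lower (1.52%). The CALB2 or SCGN cells were shallower, with a median of 5711 UMIs.

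The 45 CRABP1 cells with at least 5 STMN2 UMIs also held HOXB RNA and had more neuronal RNA. HOXB5 stood at 322 CPM in them, against 291 in the CRABP1-high cells, and HOXB6 was lower, at 142 against 211 CPM (1.49-fold higher in the CRABP1-high cells, 1.17 to 1.93). DCX stood at 1143, NSG1 at 214 and SST, the somatostatin neuropeptide, at 292 CPM. In the CRABP1-high cells DCX, NSG1 and SST stood at 515, 61.5 and 36.6 CPM. S-phase genes also differed, with a sum of 919 CPM in the cells with STMN2 and 448 in the CRABP1-high cells: 7 of the 45 carried a division gene of the rule, which the CRABP1-high cells by choice did not. With 45 cells, 7 of them marked as doublets, a few cells can set such values.

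Among the CRABP1-high cells, HOXB and CRABP1 levels went together across tiers of CRABP1, which is a description since the tiers use the rule's gene. HOXB5 stood at 211, 263, 293 and 343 CPM in cells with 5 to 9, 10 to 19, 20 to 39 and 40 or more CRABP1 UMIs (188, 272, 284 and 397 cells). ETV1 stood at 131, 157, 219 and 297 CPM. NEFL stood at 16.5, 12.1, 21.1 and 65.2 CPM. VIM went the other way, at 4991, 4045, 2804 and 2602 CPM, and FABP7 at 1157, 1115, 862 and 530. Median depth rose across the tiers from 7248 to 8700 UMIs, so cells of the top tier were also somewhat deeper.

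In a clustering of all passing cells, 870 CRABP1-high cells (76.2%) fell in 1 cluster, of which they made up 67.9%. Another 70 lay in a cluster led by RAMP1, GPC3 and NEFL, and 68 in a cluster led by SST and FABP5. A further 55 lay in a cluster in which 200 of 232 cells were marked as doublets. Clustered on their own without the 7 genes of the rule, the CRABP1-high cells formed 6 sub-groups. The genes that separate these sub-groups define them and are given as description.

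Sub-groups 1 to 4 shared HOXB and DLX RNA and had less glial RNA than all other passing cells. Radial glial genes summed to between 3103 and 5429 CPM in these 4, against 16184 in all others. Astrocyte genes summed to between 1648 and 2586 CPM, against 5962. Sub-group 1 (532 cells) was led by PCP4, TPD52L1, ETV1 and SOCS2, with ETV1 at 361 CPM. Sub-group 2 (234 cells) was led by NSG1, TTC9B and RTN1. It had NSG1 at 229 CPM, SYT1 at 304 and WNT4 at 79.3, against 36.2, 121 and 30.7 CPM in sub-group 1. Sub-group 3 (118 cells) was led by LMO1, SERPINF1, GADD45G, CDKN1A and HES6. It had the highest HES6 (426 CPM) of the 6, and DLX6-AS1 at 855 CPM. Sub-group 4 (96 cells) was led by CALB2, SST and SCGN, with CALB2 at 350 and DCX at 1074 CPM. HOXB5 stood at 364, 473, 250 and 198 CPM in sub-groups 1 to 4. HOXB6 stood at 305, 304, 185 and 80.7 CPM. VIM ranged from 359 to 2283 CPM across these 4.

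Sub-groups 5 and 6 stood apart. Sub-group 5 (90 cells) was led by HLA-DRA, HLA-DPA1 and CD74, and 53 of its cells were marked as doublets. Its median depth was 21623.5 UMIs against 7967.5 in sub-group 1. It had HLA-DRA at 856 CPM, against 19.5 to 27.0 CPM in sub-groups 1 to 4, and FABP7 at 2554 CPM. HLA class II genes summed to 478 CPM in all CRABP1-high cells, 329 without marked doublets, and between 58.4 and 66.5 in sub-groups 1 to 4. Sub-group 5 held 18.9% of all UMIs of the CRABP1-high cells, 87% of their HLA class II UMIs, 40.8% of their radial glial UMIs and 6.94% of their HOXB5 UMIs.

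Sub-group 6 (71 cells) had HOXB RNA with little DLX RNA. It was led by TAGLN, TNC, CCN2 and ACTA2, genes of contractile and matrix-producing cells, with TAGLN at 670 CPM. VIM stood at 13407 CPM and SOX2 at 1244 CPM. HOXB5 stood at 178, HOXB6 at 109 and ZIC1 at 152 CPM. DLX6-AS1 and DLX5 each stood at 7.01 CPM, DLX2 at 154 CPM and DCX at 8.01 CPM. None of its cells was marked as a doublet (0 of 71), and its median depth was 12126 UMIs.

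**Figure D5:**
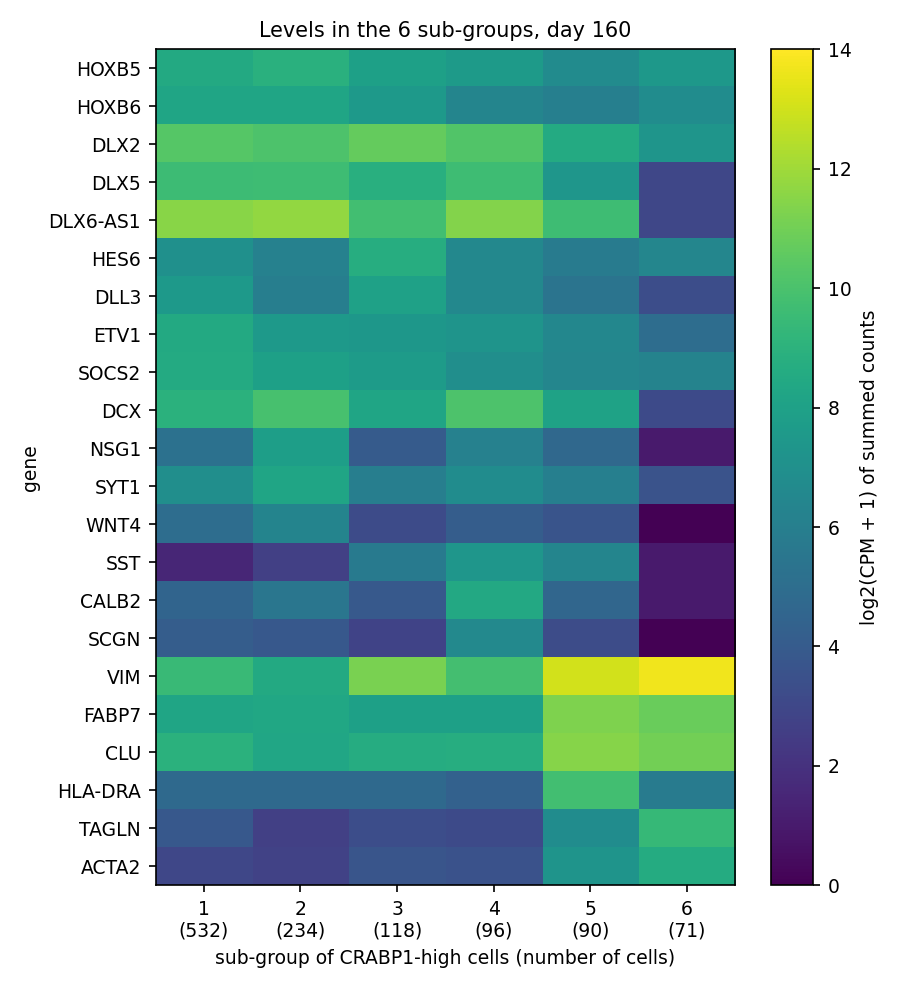
Log2(CPM + 1) of summed counts (colour) for 22 genes (rows) in the 6 sub-groups of CRABP1-high cells (columns, number of cells in brackets). HOXB5 and HOXB6 are present in all 6. DLX6-AS1 is 7.01 CPM in sub-group 6 and at least 794 CPM in the others, and HLA-DRA is highest in sub-group 5.

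No cell of the day 220 library met the rule. Of its 676 barcodes 524 passed, and 0 of 524 allows a share of up to 0.573%. CRABP1 gave 11 UMIs in 7 cells there, with a maximum of 3, although the median depth was 46438 UMIs. HOXB5 stood at 11.2 CPM and was seen in 11.8% of cells, and HOXB6 at 4.23 CPM. DLX6-AS1 stood at 139 CPM. Time, library and depth cannot be told apart between these libraries.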

How the data were processed

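The deposited matrices hold UMI counts per gene and cell barcode, in whole numbers and not normalized. Per the file headers the authors made these counts with Cell Ranger 7.0.1, and the submitters' processing notes name hg38 and Seurat 4. The sources used here do not give the annotation, the counting of introns or the use of strand. Gene coordinates are from GENCODE 29 on GRCh38, for genes of the same Ensembl identifier.

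Cells were filtered and chosen by the rule stated in the report, in Python 3.11.15 with scipy 1.17.1. Counts were summed over the cells of each group and scaled to CPM. Log2 ratios used a pseudocount of 1 CPM. CPM have exact Poisson 95% intervals, ratios exact conditional binomial intervals and shares Clopper-Pearson intervals. These cover counting error only. The share allowed by a count of 0 is 3 counts of the total. Thinning drew 5000 UMIs per cell without replacement.

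Doublets were marked with Scrublet in scanpy 1.11.5 at an expected rate of 0.06 and kept in the main values. Cells were clustered on 2000 variable genes and 30 principal components with leidenalg 0.10.2 at resolution 0.5. The CRABP1-high cells were clustered again without the genes of the rule. The summing and ratio steps were tested on simulated counts.

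The chosen cells, the gene lists and the comparisons were picked with earlier results of these data known. Genes named are the 15 highest and 15 lowest ratios against all other cells with at least 20 CPM in either group, the 10 highest and 10 lowest against each of the 3 nearest groups, and genes of the lists. Not all are printed, and some genes are not reported here. The day 220 library was used only to apply the same rule and for the levels of a few genes.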

Additional observations from a re-analysis of the deposited data

How the results depend on the processing

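The share of CRABP1-high cells was 12.4% with a threshold of 3 CRABP1 UMIs, 9.56% with 10, and 10.6% without the sub-group rich in marked doublets, a setting chosen after seeing the data. Genes 2-fold higher numbered 215 in the main comparison, 98 at 50 CPM and 111 with a pseudocount of 10 CPM. Genes 2-fold lower numbered 592, against 943 without an expression filter, 180 at 50 CPM, 282 with a pseudocount of 10 CPM and 891 without the doublet-rich sub-group. The HOX median of 2.44 became 3.07 against other non-dividing cells, 3.42 against cells with 0 CRABP1 UMIs, 1.78 with a pseudocount of 10 CPM and 0 without a filter, where most listed HOX genes had no or few UMIs. The forebrain median of −0.71 became −0.18 at 50 CPM and −1.31 without the doublet-rich sub-group, and the proneural median of 0.90 became 0.46 without a filter. The radial glial median of −1.21 became −1.50 without marked doublets, −1.46 in thinned cells, −1.56 with the rule applied to thinned cells, −1.38 against other non-dividing cells, −1.47 with each cell weighted equally and −1.76 without the doublet-rich sub-group. The astrocyte median of −0.97 became −1.27, −1.49, −1.28, −1.36 and −1.40 under the last 5 of these settings. At a resolution of 1.0, 72.3% of CRABP1-high cells shared 1 cluster, against 76.2%. GTSE1 and KIFC1, lower against all other cells, had log2 ratios of 0.16 and 9.80e-05 against other non-dividing cells, which by construction lack the division genes of the rule. For single genes, 2690 of 2730 values under an alternative kept their sign. Of the 2730, 1475 lay inside the counting interval of the main ratio and 1253 moved outside it. Where no construction is named, the cause was not tested. Depth limits the shares of low genes such as HOXB9 and WNT4. No paired analysis was possible because each time point is 1 library, and for the same reason no replicate could be left out.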
